A study of Mus musculus with 12 samples.

Results

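Metabotropic glutamate receptors are the G protein-coupled receptors for glutamate, the main excitatory transmitter of the hippocampus. The genes Grm2, Grm3, Grm4, Grm5, Grm7 and Grm8 were followed here through every probe that the annotation of the array gives to them. Of these 6 genes 5 had at least 1 named probe, 12 probes in all among 45281 on the array, and no probe was named for Grm2. RNA came from the hippocampus of male C57BL/6J mice aged 3 weeks and was hybridised to Illumina mouse bead arrays, 1 array per sample. The ethanol group (EtOH, 6 arrays) came from dams that drank 10% (v/v) ethanol by choice between 0.5 and 8.5 days post-coitum, and the comparison group (6 arrays) is labelled Control, with no further detail on what its dams drank. Both groups share strain, sex, age and tissue. The labels do not give litters or say whether RNA was pooled, and p-values here therefore cover only the variation among these arrays, some of which may be technical.

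The receptors fall into groups by sequence and signalling. Group I, to which the mGlu5 receptor of Grm5 belongs, couples to Gq proteins and phospholipase C, sits around the postsynaptic density of pyramidal cells, binds Homer scaffolds and drives a form of long-term depression that needs local protein synthesis. Group II (Grm2 and Grm3) and group III (Grm4, Grm7 and Grm8) couple to Gi/o proteins, lower cyclic AMP and mostly act as brakes on transmitter release. The mGlu7 receptor lies in the active zone of glutamatergic terminals, whereas the mGlu3 receptor is known from astrocytes as well as neurons. In whole tissue, fewer cells of a type and less RNA per cell cannot be told apart.

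Between 20804 and 21672 probes were detected per array, where detection means a detection p-value under 0.05. Normalized log2 signals are used below unless intensities are named, and levels are compared only within a probe, since probes differ in efficiency. Of 7 markers of hippocampal excitatory neurons 6 were detected on all 12 arrays, the exception being Neurod6, and so were all 7 astrocyte markers. Of 4 cerebellar markers, Pcp2 and Gabra6 were detected on no array, Barhl1 on some and Cbln1 on all 12. Thalamic, striatal and isocortical markers were mostly detected on all arrays (5 of 6, 4 of 5 and 5 of 5 with a probe), with mean signals that overlapped between the groups. Of 7 choroid plexus markers 2 were detected on all 12 arrays, and Folr1, Otx2, Aqp1, Kcne2 and Clic6 on some. Arrays EtOH 1, EtOH 3, Control 1 and Control 4 were set apart by 1 of these markers, Ttr, the thyroid hormone carrier of that epithelium. It was at 8.33 to 11.00 there and at 15.56 to 15.81 on the other 8 arrays. These 4 arrays are 2 of each group, and results are given below without them where that matters.

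The first question was which receptors could be measured at all. Grm4, Grm5, Grm7 and Grm8 each had at least 1 probe detected on all 12 arrays, whereas the single probe of Grm3 (ILMN_1238513) was detected on 0 of 12 arrays, with a lowest detection p of 0.543. Its intensity ran from 96.3 to 113.2 on EtOH arrays and from 103.9 to 123.4 on Control arrays, below the array medians of 132.6 to 152.1. This probe therefore gives no level for Grm3 in either group, and does not show that the transcript was absent. In total 8 probes passed the filter of detection on at least 6 of 12 arrays, 3 for Grm5, 3 for Grm7 and 1 each for Grm4 and Grm8.

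Among the 4 probes that did not pass, a second Grm4 probe (ILMN_3162152) was detected on 0 of 6 EtOH and 1 of 6 Control arrays. Another Grm7 probe (ILMN_2437608) and a second Grm8 probe (ILMN_1220385) were detected on no array of either group. Intensities of these 4 probes stayed between 92.1 and 149.6. For Grm4, Grm7 and Grm8, then, a detected probe and an undetected one stood on the same arrays, and the statements on these genes rest on the detected probes.

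**Figure D1:**
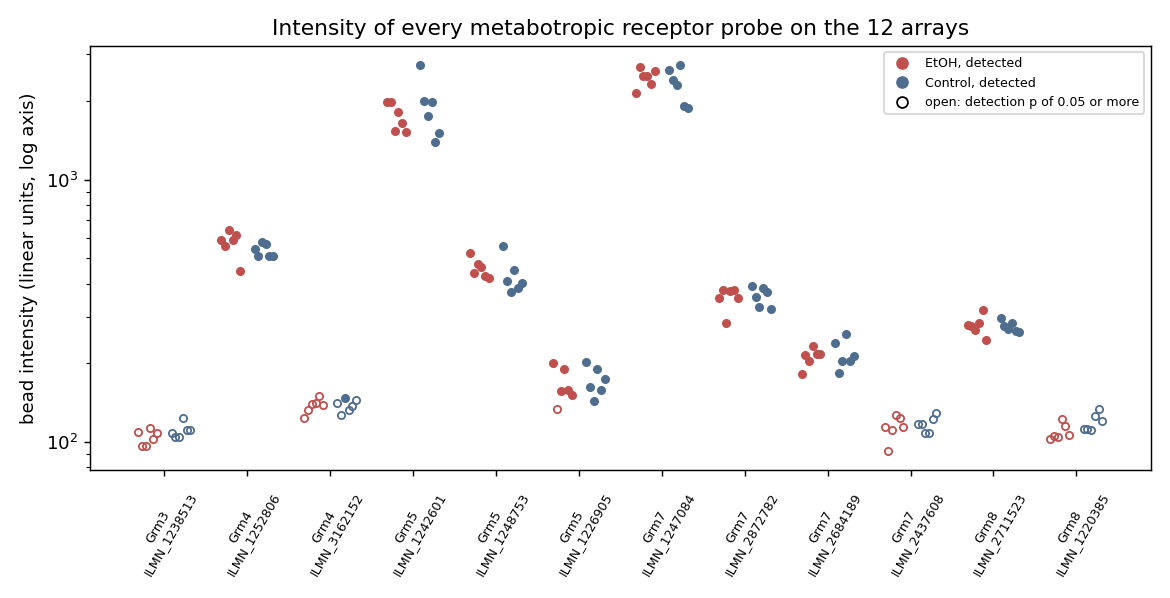
Bead intensity (log axis) of all 12 receptor probes, with EtOH arrays left of Control arrays and open symbols where a probe was not detected. The probes of Grm3 and 1 probe each of Grm7 and Grm8 are open throughout; heights of different probes are not comparable.

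Comparing EtOH with Control asks whether ethanol taken in the first days of gestation was followed by a different expression of these receptors at 3 weeks. No receptor probe differed past the threshold. In the limma fit, with p-values adjusted by Benjamini and Hochberg's method over 21263 tested probes, 0 of 8 receptor probes had an adjusted p under 0.05 (0% of all tested probes did), and 0 of 8 had an unadjusted p under 0.05, which 4.81% of all tested probes had. The groups overlapped for all 8 probes, while 0.202% of all tested probes had groups that did not overlap. The 95% interval of the difference held 0 for 8 of 8 probes and lay within a 1.5-fold change for 7 of them, as it did for 92.3% of all tested probes. The exception was the dimmest Grm5 probe, whose interval reached 1.65-fold.

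Grm5, the group I receptor, was read by 3 probes. Its brightest probe (ILMN_1242601) had a lowest, median and highest signal of 10.53, 10.56 and 10.77 on EtOH arrays, against 10.40, 10.81 and 11.33 on Control arrays. All 6 EtOH arrays lay below the Control mean, yet they sat inside the range of the Control arrays, which was wide because Control 1 was highest and Control 5 lowest of all 12. Means were 10.62 ± 0.11 in EtOH and 10.81 ± 0.31 in Control (SD, n = 6 each), a difference of -0.19 (95% interval -0.46 to 0.08), or 0.875-fold (0.724 to 1.06), with an adjusted p of 1.00 by limma. Its 2 extreme Control arrays moved the difference both ways: it was -0.0879 without Control replicate 1 and -0.274 without Control replicate 5. Without the 4 arrays low in Ttr it was -0.07. Its spread within groups exceeded that of 95.3% of tested probes of similar signal (mean within 0.5 log2).

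The other Grm5 probes did not point one way. Probe ILMN_1248753 had signals of 8.27, 8.33 and 8.65 (lowest, median, highest) on EtOH arrays and of 8.17, 8.33 and 8.79 on Control arrays. The medians matched to 2 decimals, and the difference of means was 0.05 (-0.19 to 0.29; adjusted p = 1.00 by limma), with a range of 0.0031 (without EtOH replicate 3) to 0.134 (without Control replicate 1) when single arrays were left out. The dim probe ILMN_1226905, detected on 5 of 6 EtOH and 6 of 6 Control arrays, had signals of 5.15, 5.73 and 6.52 in EtOH and of 5.57, 6.10 and 6.55 in Control, with a difference of -0.24 (-0.72 to 0.24). That difference was -0.386 without EtOH replicate 1 and -0.113 without EtOH replicate 2. Without the 4 arrays low in Ttr it was -0.271, and that of ILMN_1248753 was 0.0555. Averaged over its 3 probes, Grm5 differed by -0.13 (-0.42 to 0.16; adjusted p = 0.999 by limma).

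The arrays low in Ttr were the high ones on probe ILMN_1248753. EtOH 1, EtOH 3, Control 1 and Control 4 read 8.40 to 8.79 there, and the other 8 arrays 8.17 to 8.35, without overlap. It was the 1 receptor probe of 8 on which these arrays were all above the others, a pattern that 1.06% of all tested probes showed. On 0 of 8 were they all below the others, as they were on 2.34% of all tested probes. On ILMN_1226905 the same arrays read 5.95 to 6.55 and the other 8 read 5.15 to 6.17, and on the brightest Grm5 probe 10.55 to 11.33 and 10.40 to 10.91, both with overlap. Since these arrays were set apart by a measured gene, this is a description and no test was made. The part of tissue composition in the Grm5 readings was not tested.

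How far the 3 Grm5 probes followed one another over the arrays depended on which arrays were included. Probes ILMN_1248753 and ILMN_1226905 correlated over the 12 arrays at Pearson's r = 0.68 (permutation p = 0.0156, adjusted p = 0.0519 over 6 pairs of probes of 1 gene) and Spearman's rho = 0.59 (permutation p = 0.0489, adjusted p = 0.147). Without the 2 arrays farthest from the median r was 0.67, but over the 8 arrays not low in Ttr it was 0.27. The brightest probe correlated with these at r = 0.57 and 0.51 (adjusted permutation p = 0.113 and 0.128) and rho = 0.32 and 0.48 (adjusted permutation p = 0.463 and 0.243). The values of r were -0.11 and 0.20 without the 2 farthest arrays, Control 1 and Control 5. Over the 8 arrays not low in Ttr, which keep Control 5, they were 0.18 and 0.04. Both relations were weaker in either case. No pair of probes of a gene passed the adjustment.

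**Figure D2:**
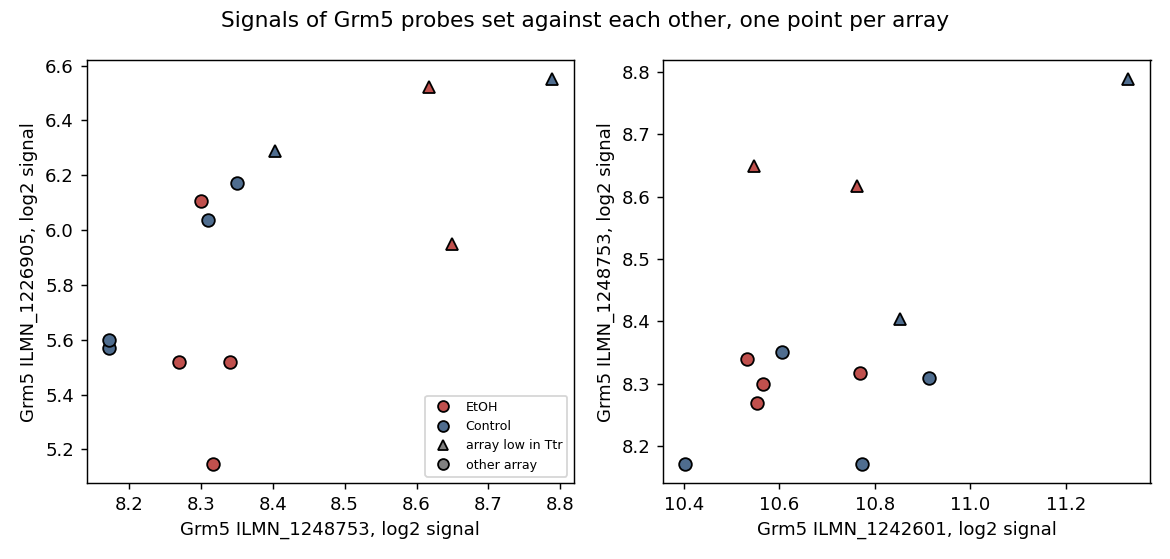
Log2 signals of Grm5 probes against each other, 1 point per array, with triangles for the 4 arrays low in Ttr. The triangles lie at the high end of ILMN_1248753 (8.40 to 8.79), and Control 1 is the highest point of each panel.

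Grm7, the presynaptic group III receptor of low glutamate affinity, had a brightest probe (ILMN_1247084) on which EtOH and Control arrays covered nearly the same range. Its lowest, median and highest signals were 10.88, 11.16 and 11.35 on EtOH arrays and 10.90, 11.18 and 11.33 on Control arrays. Means were 11.15 ± 0.17 in EtOH and 11.14 ± 0.17 in Control (SD, n = 6 each), with a difference of 0.01 (-0.20 to 0.22; adjusted p = 1.00 by limma). That is 1.01-fold, with changes beyond 0.869-fold and 1.17-fold outside the interval. With single arrays left out the log2 difference lay between -0.036 and 0.0633, so no direction can be given. Without the 4 arrays low in Ttr it was 0.124, beyond that range.

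The other Grm7 probes lay lower in EtOH by amounts within the spread between arrays. ILMN_2872782 read 7.64, 7.94 and 8.04 (lowest, median, highest) on EtOH arrays and 7.86, 8.06 and 8.14 on Control arrays, a difference of -0.12 (-0.30 to 0.06). With single arrays left out that difference ran from -0.152 (without Control replicate 6) to -0.0654 (without EtOH replicate 3). Without the 4 arrays low in Ttr it was -0.00453. ILMN_2684189 read 6.22, 6.74 and 6.83 on EtOH arrays and 6.45, 6.81 and 7.19 on Control arrays, a difference of -0.14 (-0.43 to 0.14). For the last of these 1 array carried much of the value: EtOH 1 lay at 6.22 and the other EtOH arrays at 6.66 to 6.83, and without EtOH replicate 1 the difference was -0.0541. Without Control replicate 2 it was -0.215. Without the 4 arrays low in Ttr it was 0.07, in the other direction, with an adjusted p of 0.989 by limma.

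Averaged over 3 probes, Grm7 differed by -0.08 (-0.26 to 0.10; adjusted p = 0.999 by limma). Its probes did not follow one another closely. The brightest correlated with ILMN_2684189 at r = 0.66 over 12 arrays (permutation p = 0.0173, adjusted p = 0.0519; rho = 0.64, permutation p = 0.0298, adjusted p = 0.147), at 0.41 without EtOH 1 and Control 5 and at 0.17 over the 8 arrays not low in Ttr. With ILMN_2872782 it correlated at r = 0.09 (adjusted permutation p = 0.782; rho = 0.21, adjusted permutation p = 0.616), and the dimmer probes with each other at r = 0.15 (adjusted permutation p = 0.747; rho = 0.05, adjusted permutation p = 0.885). Over the 8 arrays not low in Ttr the values of r for these pairs were 0.07 and -0.65, neither of them tested.

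Grm4, the group III receptor best known from cerebellar parallel fibres, had 1 tested probe (ILMN_1252806). It read 8.45, 8.78 and 9.18 (lowest, median, highest) on EtOH arrays and 8.71, 8.78 and 9.00 on Control arrays, so both the lowest and the highest of the 12 arrays were EtOH. Means were 8.81 ± 0.24 in EtOH and 8.80 ± 0.11 in Control (SD, n = 6 each), and the difference was 0.01 (-0.22 to 0.23; adjusted p = 1.00 by limma). The highest array was EtOH 3 and the lowest EtOH 6. Without EtOH replicate 3 the difference was -0.067, without EtOH replicate 6 it was 0.0777, and without the 4 arrays low in Ttr it was -0.09, so no direction can be given.

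Grm8, a group III receptor with high affinity for glutamate, had 1 tested probe, which varied little between arrays (ILMN_2711523). It read 7.15, 7.38 and 7.65 on EtOH arrays (lowest, median, highest) and 7.33, 7.46 and 7.53 on Control arrays, whose whole range lay inside that of the EtOH arrays. Means were 7.38 ± 0.18 in EtOH and 7.45 ± 0.08 in Control (SD, n = 6 each), a difference of -0.07 (-0.25 to 0.11; adjusted p = 1.00 by limma), or 0.954-fold (0.841 to 1.08). The difference was -0.0211 without EtOH replicate 6, -0.12 without EtOH replicate 5 and -0.0854 without the 4 arrays low in Ttr. Its spread within groups was larger than that of 6.24% of tested probes of similar signal.

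**Figure D3:**
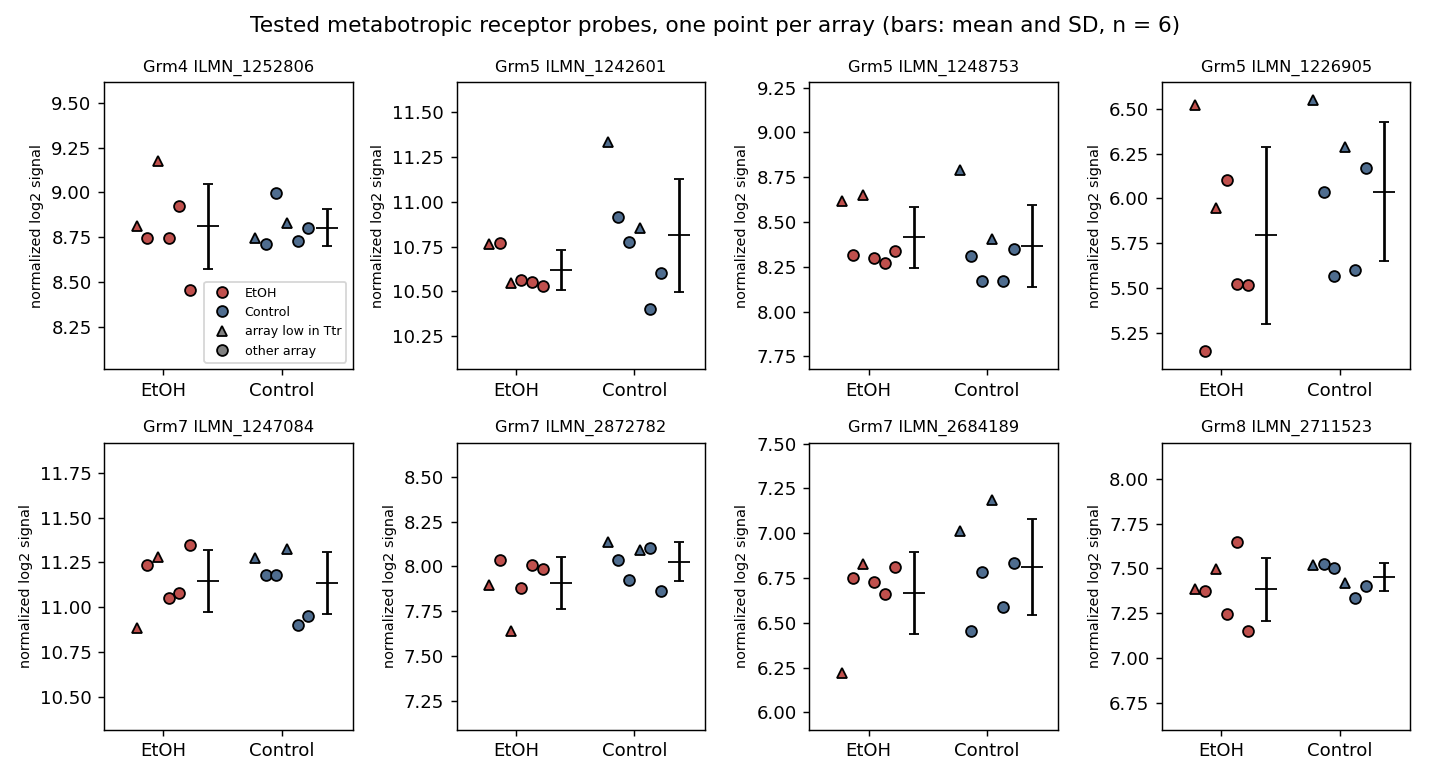
Normalized log2 signal of the 8 tested receptor probes, 1 point per array, EtOH left of Control, with mean and SD (n = 6) and triangles for arrays low in Ttr; all panels span the same number of log2 units. EtOH and Control points overlap in all 8 panels.

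Read side by side, 5 of the 8 tested probes were lower and 3 higher in EtOH, whereas 49.3% of all tested probes were lower. The median difference was -0.09 over the 8 probes and 0.00 over all tested probes. Probes of 1 gene share their target and are not independent, and by the brightest probe 2 genes (Grm5 and Grm8) were lower and 2 (Grm4 and Grm7) higher, none past the test.

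The titles place 3 EtOH and 3 Control arrays on each of 2 beadchips, which allowed the receptors to be compared within each. Of the arrays low in Ttr, EtOH 1, EtOH 3 and Control 1 were on beadchip 1 and Control 4 on beadchip 2. Beadchip and low Ttr thus partly coincide, and their parts in the values below were not separated. The brightest Grm5 probe differed by -0.31 on beadchip 1 and by -0.07 on beadchip 2. For the brightest Grm7 probe it was -0.08 and 0.10, and for Grm4 0.09 and -0.08, with a change of direction. For Grm8 it was -0.10 on beadchip 1 and -0.04 on beadchip 2. A test of the interaction of group and beadchip found 0 of 8 receptor probes past the threshold (0% of all tested probes), with 0 of 8 at an unadjusted p under 0.05 (4.2% of all tested probes). Between the beadchips, with group as a term, 0 of 8 receptor probes passed the threshold, as did 0.0282% of all tested probes. At an unadjusted p under 0.05 there was 1 of 8, against 11.2% of all tested probes: the brightest Grm5 probe averaged 10.59 on beadchip 2 and 10.85 on beadchip 1, a difference of -0.26 (-0.50 to -0.03; adjusted p = 0.399 by limma).

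**Figure D4:**
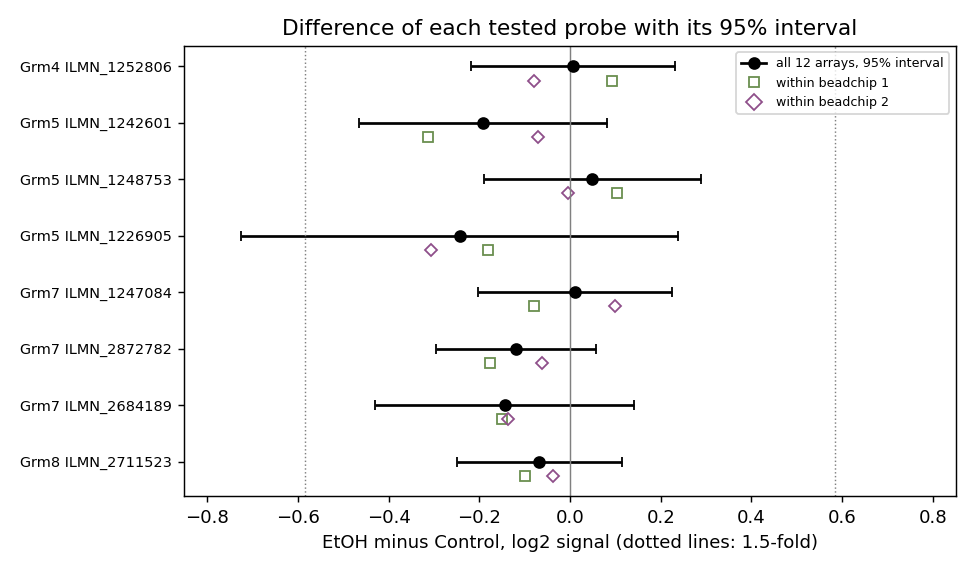
EtOH minus Control on the log2 scale for the 8 tested receptor probes: black circles with 95% intervals for all 12 arrays, open squares and diamonds for beadchips 1 and 2. All 8 intervals cross 0 and 7 stay inside the dotted lines of a 1.5-fold change.

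The receptor genes showed no shared rise and fall over the arrays that passed the test. Of 6 pairs of brightest probes, Grm4 and Grm8 correlated most, at Pearson's r = 0.66 (permutation p = 0.021, adjusted p = 0.126 over the 6 pairs) and Spearman's rho = 0.50 (permutation p = 0.105, adjusted p = 0.316) over 12 arrays. Without EtOH 3 and EtOH 6, the arrays farthest from the Grm4 median, r was 0.49, and over the 8 arrays not low in Ttr it was 0.78. Grm5 correlated with Grm7 and with Grm8 at r = 0.38 each (adjusted permutation p = 0.454 for both), with rho of 0.19 and 0.52 (adjusted permutation p = 0.92 and 0.316). The other 3 pairs lay between r = -0.05 and 0.02 (adjusted permutation p = 0.94).

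The genes whose signal over the 12 arrays was most like that of each receptor were looked up among 11400 genes, as a description without a test, since the highest of so many correlations is high by selection and the arrays share their preparation. For Grm7 these were Kbtbd7 (r = 0.95, rho = 0.94, and r = 0.95 over the 8 arrays not low in Ttr), the potassium channel subunit gene Kcnv1 (0.91, 0.94 and 0.85) and the myosin Va gene Myo5a (0.89, 0.91 and 0.84). For Grm4 they were the phosphatase gene Ppm1b (0.91, 0.83 and 0.87), the potassium channel gene Kcnc4 (0.90, 0.83 and 0.83) and the pyridoxal kinase gene Pdxk (0.89, 0.56 and 0.88). For Grm5 they were Nhsl1 (0.88, 0.78 and 0.78), the Krüppel-like factor gene Klf3 (0.87, 0.84 and 0.83) and Fam222b (0.87, 0.74 and 0.69), and for Grm8 the folliculin gene Flcn (0.85, 0.89 and 0.87), the prosaposin gene Psap (0.85, 0.72 and 0.90) and Plagl2 (0.85, 0.88 and 0.88). The 4 sets share no gene.

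Genes that work with the receptors were read in 6 lists holding 88 genes, and 74 of these could be tested. None passed the test: 0 of 74 had an adjusted p under 0.05 (0% of all tested probes) and 0 of 74 an unadjusted p under 0.05 (4.81%) by limma. In EtOH 35 of the 74 were higher and 39 lower by any amount (52.7% lower, against 49.3% of all tested probes). The median difference was -0.01, and all 74 intervals lay within a 1.5-fold change, as did 92.3% of those of all tested probes. The 74 are of the brightest probe of each gene and the 92.3% covers every tested probe, so these shares are not like for like. Scaling to a common median instead put the median of all tested probes at 0.05 and those of the 6 lists between 0.03 and 0.08, so no list is given a direction.

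Of the scaffolds around group I receptors 4 of 10 tested genes were higher and 6 lower, with a median of -0.03. The postsynaptic scaffold gene Dlgap1 was at 14.13 ± 0.07 in EtOH and 13.99 ± 0.14 in Control (SD, n = 6 each), a difference of 0.13 (-0.03 to 0.29), and its 5 other probes ran from -0.04 to 0.37. Cyth2 was at 0.11, Dlgap3 at -0.11 and Necab2, a calcium-binding protein gene, at 0.11. Homer1, the scaffold that ties mGlu5 to its calcium stores, was at -0.03 on the brightest of its 4 tested probes. Shank3 was at -0.07 on the brighter of its 2 tested probes. Both genes were chosen after their values were seen.

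For the Gq arm 5 of 12 tested genes were higher and 7 lower, with a median of -0.01. Dagla, the lipase that makes the endocannabinoid 2-AG, was at 5.65 ± 0.23 in EtOH and 5.92 ± 0.25 in Control (SD, n = 6 each), a difference of -0.26 (-0.54 to 0.01), and was detected on 5 of 6 EtOH and 6 of 6 Control arrays. Plcb1, a phospholipase C that mGlu5 activates, was at -0.17, the Gq family gene Gna11 at 0.11 and the cannabinoid receptor gene Cnr1 at -0.15. On their other probe Gna11 was at 0.02, in the same direction, and Cnr1 at 0.14, in the opposite direction.

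For the Gi/o and cyclic AMP arm, through which group II and III receptors signal, 11 of 20 tested genes were higher and 9 lower, with a median of 0.01. Prkaca, the catalytic subunit of protein kinase A, was at 12.45 ± 0.14 in EtOH and 12.31 ± 0.06 in Control (SD, n = 6 each), a difference of 0.13 (-0.03 to 0.29), against 0.05 on its other probe. The potassium channel gene Kcnj6, which Gi/o proteins open, was at -0.23 (its other probes ran from -0.20 to 0.19). The G protein subunit genes Gng3 and Gnai1 were at 0.18 and -0.09.

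Among presynaptic partners of the group III receptors 7 of 9 tested genes were higher and 2 lower, with a median of 0.02. The calmodulin gene Calm3 was at 0.13, the phosphatase gene Ppp1cc at 0.11 (0.03 on its other probe), and the calcium channel genes Cacna1a and Cacna1b at -0.14 and 0.10, with other probes of the channels on both sides of 0. Pick1, which binds the tail of mGlu7, was at 0.02 on the brighter of its 2 tested probes. Elfn1, the postsynaptic adhesion protein that recruits mGlu7, was at 0.01. Both genes were chosen after their values were seen.

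In the list of desensitization genes 4 of 12 were higher and 8 lower, with a median of -0.03. The regulator of G protein signalling gene Rgs8 was at -0.12, Cnksr2 at -0.09 (-0.26 on its other probe), the receptor kinase gene Grk5 at -0.14 and the arrestin gene Arrb2 at 0.06. In the list of translation and long-term depression genes 4 of 11 were higher and 7 lower, with a median of -0.01. Eef2k, the elongation factor kinase that mGlu5 activates, was at 8.52 ± 0.20 in EtOH and 8.33 ± 0.10 in Control (SD, n = 6 each), a difference of 0.19 (-0.01 to 0.40). The cap-binding protein gene Eif4e was at 0.21, Mtor at -0.09 (0.40 on its other probe) and Tsc1 at 0.10. The other probes of Tsc1 ran from -0.21 to 0.15. Fmr1, the fragile X gene, was at -0.01, and its naming falls outside the rule since it followed a look at its value.

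**Figure D5:**
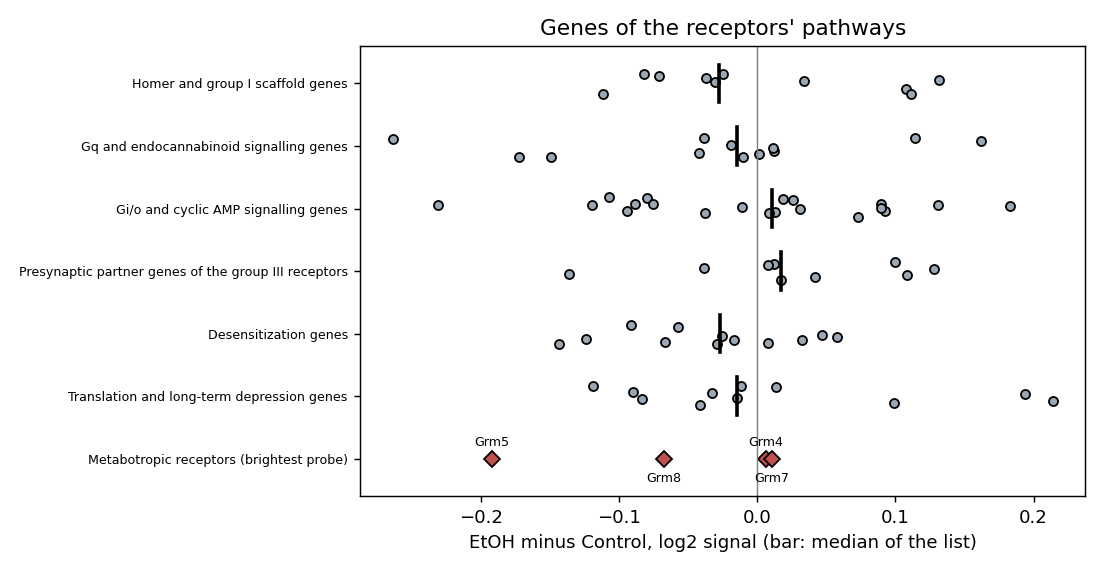
EtOH minus Control on the log2 scale for the brightest probe of 74 pathway genes in 6 lists (circles, with the list median as a bar) and of Grm4, Grm5, Grm7 and Grm8 (diamonds). The circles lie on both sides of 0 in every list, and list medians stay between -0.03 and 0.02.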

How the data were processed

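Total RNA from 12 hippocampus samples was labelled with Cy3 and read on Illumina bead arrays, and GenomeStudio 1.9.0 is named in the submitters' processing notes. The deposited table gives intensities on a linear scale, neither normalized between arrays nor background-subtracted, with array medians of 132.6 to 152.1, and next to every intensity the p-value of its detection, as the file headers name it. These p-values were deposited by the authors. The authors' second deposited table holds processed intensities with equal medians and served as an alternative. No column of values was left unused, and no 2 arrays held identical values (correlations 0.981 to 0.993). The number of arrays limits the precision.

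With limma 3.58.1 in R 4.3.3, background was removed by normexp through the detection p-values (offset 16), quantiles were equalised between arrays and signals were put on the log2 scale. The offset draws differences of dim probes towards 0. The 21263 probes with a detection p under 0.05 on at least 6 arrays were fitted by lmFit and eBayes with group as the only term, and p-values were adjusted over all of them at a threshold of 0.05. Differences are EtOH minus Control. Symbols were updated through Entrez numbers against the GRCm38.p6 gene table, and 18064 tested probes had 1 gene, 9 several and 3190 none. A gene is represented by its brightest tested probe. All receptor probes, the 4 genes of smallest p per pathway list and the 3 genes most like each receptor were named by rule. Permutation tests of correlations were two-sided with 100000 resamples. The members and lists were chosen with earlier results of these data known. The fit was run on simulated data with independent normal noise for each probe and no effects shared by arrays or beadchips. No result here rests on that run. No sequences are printed, because the tables used here hold no probe or protein sequences.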

Additional observations from a re-analysis of the deposited data

Results flagged for a closer look

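Among 28 groups of 6 arrays (8 receptor probes and 6 list means in each group), 1 held an array far from the others by Dixon's test, where chance flags about 1 in 20. EtOH 1 read 6.22 for the Grm7 probe ILMN_2684189, and the other EtOH arrays lay between 6.66 and 6.83, a gap of 0.723 of the group's range. EtOH 1 is 1 of the arrays low in Ttr. Whether tissue composition or RNA quality had a part in this reading was not tested.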

How the results depend on the processing

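No receptor probe, and none of all tested probes, passed the threshold by limma under any of the 22 alternative fits, of which the one without the 4 arrays low in Ttr was chosen after seeing the data, as were the correlations between probes of 1 gene. The lowest adjusted p in them was 0.236 over all probes and 0.904 for a receptor probe, and 860 to 2087 probes had an unadjusted p under 0.05, the highest count being that without a filter on detection. Without Control replicate 5, 1 of 8 receptor probes had an unadjusted p under 0.05, the Grm5 probe ILMN_1242601 at -0.274, as had 4.38% of all tested probes. Without a filter 1 of 12 had one, against 4.61% of all probes: the Grm8 probe ILMN_1220385 (adjusted p = 1.00 by limma), which was detected on no array. The count of 0 also held for the mean of all probes of a gene and for the beadchip contrast in the alternatives run there, and 0 of 6 pairs of receptor genes were called under 17 refits or on residuals after group and beadchip.

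Directions near 0 turned. Grm4 was at -0.00939 with array weights, at -0.093 without the 4 arrays low in Ttr, and between -0.067 and 0.0777 with single arrays left out, when it fell below 0 in 5 of 12 fits. The brightest Grm7 probe ran from -0.036 to 0.0633 with single arrays left out. Without the 4 arrays low in Ttr it was at 0.124, and the Grm7 probe ILMN_2684189 was at 0.0731. Scaling to a common median raised the median of all probes to 0.05, with 67.3% of probes higher in EtOH in place of 50.7%. The receptor probes then ran from -0.23 to 0.10, and all 6 list medians lay higher, at 0.03 for desensitization, 0.0356 for scaffolds, 0.0397 for translation and 0.0461 for the Gq arm, each on the other side of 0, and at 0.062 for the Gi/o arm and 0.0798 for presynaptic partners. The cause of these shifts was not tested. Same-numbered arrays deviated together at r = -0.25 to 0.33, and only EtOH 1 had its best match in the Control array of the same number. Such values do not show that the numbers pair the samples, and they cannot exclude it. With the replicate number as a block in limma, 0 probes were called and 1078 had an unadjusted p under 0.05.

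With 6 arrays a group, intervals of receptor probes reached 1.17-fold to 1.65-fold, and changes up to these sizes stay within what the data allow.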
